A study of Homo sapiens with 5 samples.

Results

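The enzymes that make serine and pass its carbon to folate were compared between 2 groups of Ishikawa cells, sh-LINC00958, with hairpins against the non-coding transcript LINC00958, and the negative control sh-NC. They were taken by symbol from the deposited gene table, which held all 10 of the chosen genes among its 58174 rows. The 10 are PHGDH, PSAT1, PSPH, SHMT1, SHMT2, MTHFD1, MTHFD1L, MTHFD2, ALDH1L2 and TYMS. Of these, 1 rose past the test's threshold in sh-LINC00958 cells, PHGDH, to 1.39 times its control level. Over all tested genes 9.8% passed in either direction, so 1 of 10 is near that share. PHGDH did not pass with the trend of values on transcript GC content and length removed (limma adjusted p = 0.0546). The other 9 did not pass, among them MTHFD2, at 0.674 times its control level, and PSAT1, which measured nearly the same in both groups.

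Ishikawa is an established line from a human endometrial carcinoma. All cells were grown in serum-containing medium, and the protocol describes lentiviral infection followed by puromycin at 2.5 µg/ml from 72 h. The 3 sh-LINC00958 libraries came from cells with hairpins against LINC00958, and the 2 sh-NC libraries from negative control cells. How many hairpins were used, their sequences, when cells were harvested, the strand setting and whether the cells were clonal is not stated in the labels. The labels do not say whether replicates are separate cultures. The p-values therefore describe the spread of these 5 libraries, and that spread may be technical.

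Values are TPM, a transcript level scaled for gene length and library total, so levels of different genes can be set side by side within a library. LINC00958 itself measured 67.2, 67.1 and 58.4 TPM in sh-LINC00958 replicates 1 to 3 and 119 and 137 TPM in sh-NC replicates 1 and 2. In each library, between 27896 and 29411 genes had a value above 0, and the sequencing depth is unknown. The epithelial and endometrial genes EPCAM, KRT8, KRT18, KRT19, CDH1, PAX8, SOX17 and MSX1 were all tested, and their list with ESR1 and PGR summed to 2713 to 2896 TPM in sh-LINC00958 and 2746 to 2751 TPM in sh-NC. Within that list KRT18 was higher in sh-LINC00958 (log2 fold change 0.44, limma adjusted p = 0.0211), while PAX8 (-0.20, 0.0873) and SOX17 (-0.28, 0.0974) did not pass as fitted but passed lower with the trend on transcript GC content and length removed (-0.35, adjusted p = 0.0350, and -0.46, adjusted p = 0.0474). The part of these markers in the results below was not tested. The hormone receptor genes ESR1 and PGR were at or near 0 in all 5 libraries (at most 0.0149 and 0.0264 TPM). Fibroblast markers (7 genes) summed to 5.32 to 5.89 against 4.95 to 5.15 TPM, blood markers (5 genes) to 2.96 to 3.66 against 1.73 to 2.67 TPM, and endothelial markers (4 genes) to 4.39 to 5.89 against 6.46 to 6.88 TPM. PTPRC, which marks all white blood cells, was at most 0.0758 TPM, and the part of these low sums was not tested either. In such bulk libraries, fewer cells with a transcript and less transcript per cell cannot be told apart.

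Serine synthesis branches off glycolysis at 3-phosphoglycerate. PHGDH oxidises that intermediate, PSAT1 adds an amino group and PSPH removes the phosphate to leave serine. Serine hydroxymethyltransferases then move a carbon from serine to tetrahydrofolate, SHMT2 in mitochondria and SHMT1 in the cytosol. In mitochondria that carbon is oxidised by MTHFD2 and released as formate by MTHFD1L, or oxidised to carbon dioxide by ALDH1L2. In the cytosol MTHFD1 returns formate to the folate pool, which feeds purine synthesis and, through TYMS, thymidylate for DNA. The pathway is known for high activity in dividing tumour cells and for control by the transcription factors ATF4 and MYC.

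The bases before the RefSeq transcription start were read for 3 members, the gene that rose (PHGDH), the gene with the largest lower fitted value (MTHFD2) and the only gene whose window held a match to the core of the C/EBP-ATF response element, to which ATF4 binds (MTHFD1L). The build is GRCh38.p14 and all 3 lie on the plus strand, shown 5′ to 3′. The PHGDH stretch is chr1:119711684-119711714 and the MTHFD2 stretch chr2:74198365-74198561, each ending at the base before the first GENCODE 29 exon of that gene inside the 250-base window. The annotated PHGDH gene begins further upstream, so its stretch lies within the gene and only the MTHFD2 stretch precedes the whole gene. The MTHFD1L stretch, chr6:150866346-150866375, surrounds its match, in capitals.
PHGDH: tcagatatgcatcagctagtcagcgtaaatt
MTHFD2: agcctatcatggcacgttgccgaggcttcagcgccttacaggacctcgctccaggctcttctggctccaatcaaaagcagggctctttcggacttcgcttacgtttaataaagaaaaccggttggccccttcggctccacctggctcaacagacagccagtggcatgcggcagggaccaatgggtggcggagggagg
MTHFD1L: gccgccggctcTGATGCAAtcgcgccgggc

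RefSeq gave such windows for 7 of the 10 members, and none was listed for PSPH, SHMT2 and ALDH1L2. In the 250 bases before the start, searched on both strands, the motif TGATGNAA was found in 1 of the 7 members, MTHFD1L, and in 3.14% of all 35116 windows. The E-box CACGTG, which MYC binds, was found in 2 members, MTHFD1 and MTHFD1L, and in 6.34% of all windows. The antioxidant response element core TGACNNNGC was found in 0 members and in 10.9% of all windows. The 4 listed starts of MTHFD1L were counted as 1 member, and no matches to different motifs shared a base in any member's window. Background shares count each window, so member counts and shares are not like for like. A member with more starts had more chances of a match, and not all MTHFD1L starts held one. A match describes letters in this window only. MTHFD1L, the member with matches to both TGATGNAA and CACGTG, did not pass the test of expression.

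Levels spanned a wide range. SHMT2 (mean over the 5 libraries 337 TPM) and PSAT1 (324 TPM) were the most abundant, followed by MTHFD2 (130.4 TPM), SHMT1 (128 TPM), TYMS (126 TPM), MTHFD1 (109 TPM), PHGDH (105 TPM), MTHFD1L (76.5 TPM), PSPH (30.7 TPM) and ALDH1L2 (13.9 TPM). Neighbours in this order had library ranges that overlapped for SHMT2 and PSAT1 and throughout the run from MTHFD2 to PHGDH. Within that run TYMS was nevertheless above MTHFD1 in 5 of 5 libraries. Ranges did not overlap between PSAT1 and MTHFD2, PHGDH and MTHFD1L, MTHFD1L and PSPH, or PSPH and ALDH1L2. The first and last steps of serine synthesis were less abundant than the middle step in every library.

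**Figure D1:**
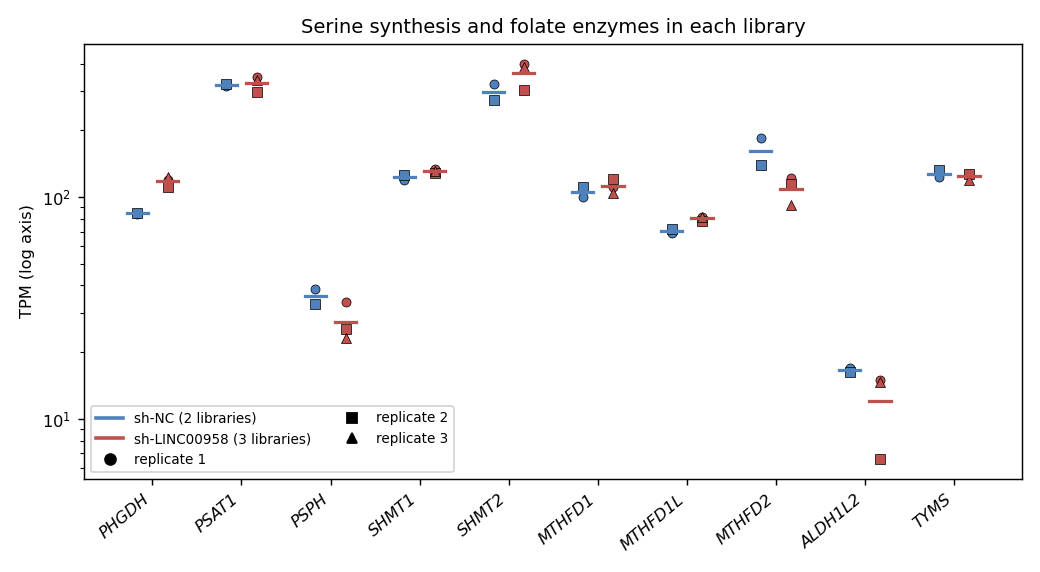
TPM (vertical log axis) of the 10 enzymes in each of the 5 libraries; symbols mark the replicate, colours the group, and horizontal bars the group mean. PHGDH in the 3 sh-LINC00958 libraries (111 to 123 TPM) sits above both sh-NC libraries (84.4 and 85.3 TPM), and ALDH1L2 in sh-LINC00958 replicate 2 (6.59 TPM) sits below the other 4 libraries.

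Group differences were tested with limma on log2(TPM + 1) over all 17049 genes with a mean of at least 1 TPM, two-sided, with Benjamini-Hochberg adjustment and a threshold of 0.05. All 10 members were above that mean and were tested. A log2 fold change here is a difference on that scale, sh-LINC00958 minus sh-NC, which understates the change of low genes. Over all genes tested, 9.8% passed in either direction, 4.12% higher and 5.68% lower. Among the members 1 of 10 passed, higher, and 0 passed lower, a share near that background. At an unadjusted p under 0.05 there were 3 members, PHGDH, MTHFD2 and MTHFD1L, where 30.7% of all genes fell under that value. The members' median log2 fold change was 0.06, beside 0.00 over all genes, and the median of its absolute size was 0.23 for members and 0.24 for all genes. Groups did not overlap for 5 members, 3 higher and 2 lower. The same was true of 49.9% of all tested genes, 24.4% higher and 25.5% lower. No single gene can go below p = 0.1 in an exact two-sided permutation test of 3 libraries against 2.

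PHGDH, the entry enzyme of serine synthesis, rose. It measured 119, 111 and 123 TPM in sh-LINC00958 replicates 1 to 3 and 84.4 and 85.3 TPM in sh-NC replicates 1 and 2. All 3 sh-LINC00958 libraries were above both controls, and the lowest of them exceeded the higher control by 30.2%. The group mean was 118 ± 6.21 TPM (SD, n = 3) in sh-LINC00958 cells and 84.8 ± 0.615 TPM (SD, n = 2) in control cells, which gave a log2 fold change of 0.47 ± 0.0787 (SE; 95% interval 0.28 to 0.66; limma adjusted p = 0.0275). The gene (ENSG00000092621) spans chr1:119648411-119744226 on the plus strand of GRCh38, the build of all gene positions below. The size of the PHGDH difference was similar without any 1 library (0.44 to 0.51), but the adjusted p rose above the threshold in limma when any of 4 libraries was left out. These were sh-LINC00958 replicates 1 (0.103) and 3 (0.0725) and sh-NC replicates 1 (0.138) and 2 (0.143). With the trend of values on transcript GC content and length removed, the PHGDH log2 fold change was 0.33 (limma adjusted p = 0.0546).

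PSAT1 (ENSG00000135069, chr9:78297143-78330093, plus strand), the aminotransferase of the middle step, measured 348, 299 and 336 TPM in sh-LINC00958 and 316 and 323 TPM in sh-NC. The sh-LINC00958 libraries lay on both sides of the controls. The PSAT1 log2 fold change was 0.03 (95% interval -0.18 to 0.24, limma adjusted p = 0.821), and -0.01 when sh-LINC00958 replicate 1 was left out. PSPH (ENSG00000146733, chr7:56011051-56051604, minus strand), the phosphatase that completes the pathway, measured 33.6, 25.5 and 23.2 TPM in sh-LINC00958 and 38.5 and 32.9 TPM in sh-NC. sh-LINC00958 replicate 1 was above the lower control and the other 2 were below both. The PSPH log2 fold change was -0.38 (95% interval -0.81 to 0.05, limma adjusted p = 0.199), so the first and last enzymes of the same short pathway had fitted values of opposite sign, only the first of them past the threshold.

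Ratios within a library restate these values and are given as a description. PSAT1 was 2.91, 2.69 and 2.72 times PHGDH in the sh-LINC00958 libraries and 3.74 and 3.79 times PHGDH in the sh-NC libraries. PHGDH was 3.56, 4.36 and 5.32 times PSPH in sh-LINC00958 and 2.19 and 2.60 times PSPH in sh-NC. Neither ratio overlapped between groups, but both contain PHGDH, the member that passed, while PSAT1 and PSPH each overlapped. The summed TPM of the 3 serine synthesis enzymes did overlap, at 501, 436 and 482 in sh-LINC00958 and 438 and 441 in sh-NC, since PSAT1 makes up most of it.

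The hydroxymethyltransferases, which link serine to folate, did not pass. SHMT2 (ENSG00000182199, chr12:57229327-57234935, plus strand), the mitochondrial enzyme, measured 399, 304 and 385 TPM in sh-LINC00958 and 323 and 275 TPM in sh-NC. sh-LINC00958 replicates 1 and 3 were above both controls and replicate 2 lay between them. The SHMT2 log2 fold change was 0.27 (95% interval -0.07 to 0.62, limma adjusted p = 0.247). With the GC and length trend removed it was 0.12 (limma adjusted p = 0.633). Cytosolic SHMT1 (ENSG00000176974, chr17:18327860-18363563, minus strand) had the smallest spread of the 10 among the sh-LINC00958 libraries (coefficient of variation 2.20%), at 134, 129 and 131 TPM, with 120.02 and 126 TPM in sh-NC. The groups did not overlap, but the gap between them was 2.46% and the SHMT1 log2 fold change was 0.10 (95% interval -0.08 to 0.27, limma adjusted p = 0.404). The SHMT2 to SHMT1 ratio overlapped between groups, at 2.97, 2.36 and 2.94 against 2.69 and 2.19.

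In the mitochondrial folate steps, MTHFD2 and MTHFD1L had fitted values of opposite sign. MTHFD2 (ENSG00000065911, chr2:74198562-74217565, plus strand), the dehydrogenase and cyclohydrolase, measured 121, 115 and 91.7 TPM in sh-LINC00958 and 185 and 139 TPM in sh-NC. All 3 sh-LINC00958 libraries were below both controls, and the controls differed from each other by 1.33 times. Averages were 109 ± 15.5 TPM in sh-LINC00958 cells (SD, n = 3) and 162 ± 32.2 TPM in control cells (SD, n = 2). The fitted MTHFD2 log2 fold change was -0.56 ± 0.169 (SE; 95% interval -0.97 to -0.15; limma adjusted p = 0.0889). Its size depended on the controls, at -0.36 when sh-NC replicate 1 was left out and -0.76 when sh-NC replicate 2 was. With the GC and length trend removed, the MTHFD2 log2 fold change was -0.39 (limma adjusted p = 0.222). MTHFD1L (ENSG00000120254, chr6:150865549-151101887, plus strand), the synthetase that releases formate, measured 81.6, 78.0 and 81.6 TPM in sh-LINC00958 and 69.0 and 72.1 TPM in sh-NC. Its groups did not overlap, and the MTHFD1L log2 fold change was 0.19 (95% interval 0.0034 to 0.37, limma adjusted p = 0.158). MTHFD2 was 1.49, 1.47 and 1.12 times MTHFD1L in sh-LINC00958 and 2.68 and 1.93 times in sh-NC. Since neither gene's groups overlapped and their signs were opposite, this ratio could not overlap between groups and is given as a description.

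ALDH1L2 (ENSG00000136010, chr12:105019784-105084577, minus strand), the mitochondrial formyltetrahydrofolate dehydrogenase, measured 15.0, 6.59 and 14.7 TPM in sh-LINC00958 and 16.9 and 16.3 TPM in sh-NC. sh-LINC00958 replicate 2 stood far below the other 4 libraries, and the other 2 sh-LINC00958 libraries were just below the controls. The ALDH1L2 log2 fold change was -0.51 (95% interval -1.34 to 0.32, limma adjusted p = 0.3604). It was -0.30 (limma adjusted p = 0.679) with the GC and length trend removed, and -0.15 without sh-LINC00958 replicate 2. Replicate 2 also had the lowest sh-LINC00958 value of PHGDH, PSAT1, SHMT1, SHMT2 and MTHFD1L, and the highest of MTHFD1 and TYMS.

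The cytosolic enzymes downstream differed little. MTHFD1 (ENSG00000100714, chr14:64388031-64463457, plus strand), the trifunctional cytosolic enzyme, measured 111, 121 and 105 TPM in sh-LINC00958 and 100.3 and 111 TPM in sh-NC. The groups overlapped, and the MTHFD1 log2 fold change was 0.09 (95% interval -0.14 to 0.32, limma adjusted p = 0.571). TYMS (ENSG00000176890, chr18:657604-673578, plus strand), thymidylate synthase, measured 126, 127 and 119.9 TPM in sh-LINC00958 and 124 and 132 TPM in sh-NC. The TYMS log2 fold change was -0.04 (95% interval -0.22 to 0.14, limma adjusted p = 0.751), and 0.0062 when sh-NC replicate 2 was left out. The interval for TYMS leaves out changes as large as that fitted for PHGDH, and the one for MTHFD1 reaches up to 0.32.

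**Figure D2:**
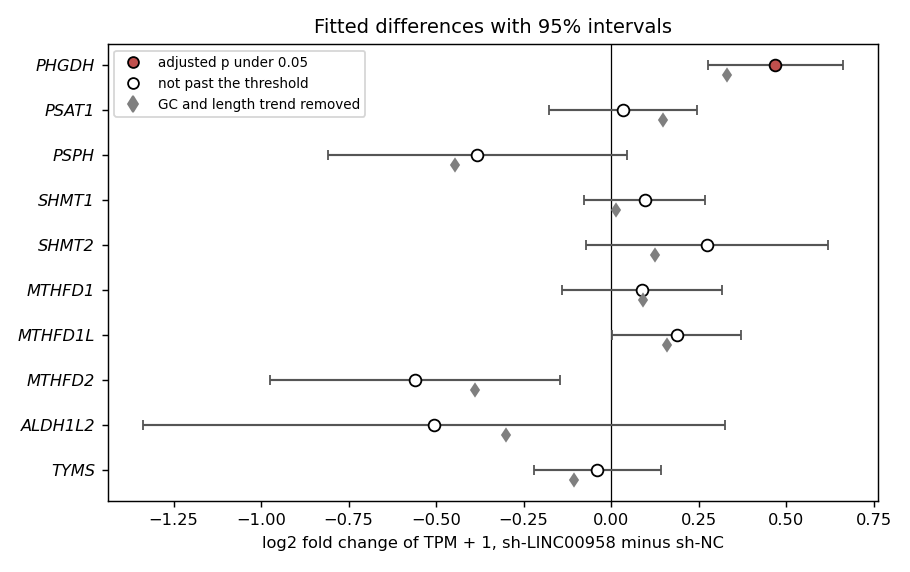
Fitted log2 fold change of TPM + 1 (horizontal axis, sh-LINC00958 minus sh-NC) for each enzyme with its 95% interval; the filled point passed an adjusted p of 0.05 and grey diamonds give the value with the GC and length trend removed. PHGDH (0.47) is the 1 filled point, and the interval of ALDH1L2 (-1.34 to 0.32) is the widest.

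PHGDH had the largest higher fitted value and MTHFD2 the largest lower one, so a shift in their ratio follows from the choice of the pair and is given as a description. PHGDH was 0.456 and 0.612 times MTHFD2 in the 2 sh-NC libraries and 0.984, 0.970 and 1.34 times MTHFD2 in the 3 sh-LINC00958 libraries, so it exceeded MTHFD2 in sh-LINC00958 replicate 3 alone. The sum over all 10 members overlapped between groups, at 1489.6, 1316 and 1410.01 TPM in sh-LINC00958 and 1376 and 1312 TPM in sh-NC. The same held for the 4 mitochondrial enzymes, at 617, 503.6 and 573 against 593 and 503 TPM, and for the 3 cytosolic enzymes, at 371, 376 and 355 against 344 and 368 TPM.

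Transcript GC content moved with the fold changes of the whole table. Tested genes were split into 4 bins of like size by the GC content of their annotated transcripts. The median log2 fold change was -0.29 in the bin of 23.1% to 43.0% GC, -0.06 in the next bin, 0.10 in the bin of 48.9% to 56.4% and 0.18 in the bin of 56.4% to 86.4%. ALDH1L2 (42.1% GC) fell in the lowest bin, MTHFD2 (43.1%), PSAT1 (43.7%) and MTHFD1 (47.9%) in the second, MTHFD1L (50.1%), TYMS (50.9%), PSPH (51.2%), SHMT1 (53.1%) and PHGDH (56.2%) in the third, and SHMT2 (57.4%) in the highest. With the GC and length trend removed, 0 of the 10 members passed in limma, beside 5.04% of all genes (2.44% higher and 2.61% lower). Their values then ranged from -0.45 for PSPH to 0.33 for PHGDH, and each of the 10 had the same sign as before.

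**Figure D3:**
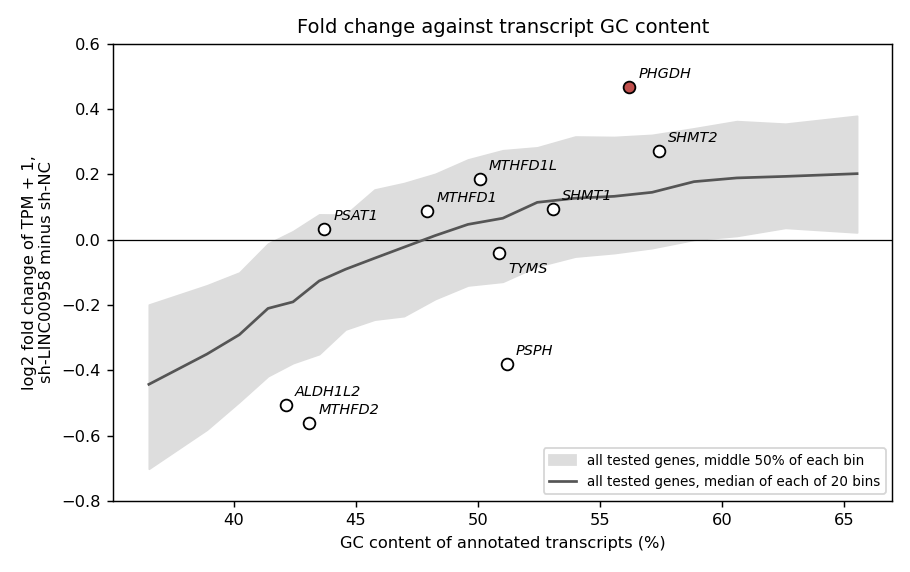
Log2 fold change of TPM + 1 (vertical axis, sh-LINC00958 minus sh-NC) against transcript GC content in percent (horizontal axis); the line is the median and the band the middle 50% of all tested genes in 20 bins, and points are the 10 enzymes. PHGDH (0.47) lies above the band and MTHFD2 (-0.56), ALDH1L2 (-0.51) and PSPH (-0.38) lie below it.

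Some members share sequence with other loci. No strand setting is given, so reads from a member and from a gene on the opposite strand may not be told apart. Of the 75-base words in annotated TYMS transcripts, 31.5% also occurred in another gene, mainly ENOSF1, which overlaps TYMS on the opposite strand over 39.1% of its exonic bases. ENOSF1 measured 59.5 to 70.4 TPM, so the TYMS level is uncertain. For MTHFD2 the share was 25.6%, mostly with SLC4A5 on the opposite strand, which was at most 0.510 TPM in any library. MTHFD1 shared 7.76%, SHMT2 4.42%, SHMT1 1.75%, PSPH 1.41%, ALDH1L2 0.833% and PSAT1 0.731%, while PHGDH and MTHFD1L shared none. PSPHP1, a pseudogene that shares some of the PSPH words, measured 14.7 to 19.4 TPM, with a log2 fold change of 0.16 (limma adjusted p = 0.482), and how shared reads were assigned is not stated. C12orf45, on the opposite strand from ALDH1L2, shared 1.70% of its exonic bases and measured 5.50 to 21.1 TPM.

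The genes whose profile over the 5 libraries was nearest to that of PHGDH were MAPK3, CAVIN1 and U2AF1, by root mean square difference of centred log2(TPM + 1) (0.0128, 0.0184 and 0.0185). MAPK3 measured 95.5, 89.3 and 100.2 TPM in sh-LINC00958 and 68.2 and 67.5 TPM in sh-NC. This likeness is a description of 5 libraries with no test.

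Around the 10 enzymes, 20 other folate and glycine cleavage genes were tested, of which 0 rose and 1 fell. The one that fell was MTHFD2L, a mitochondrial paralogue of MTHFD2. It measured 15.5, 20.7 and 16.9 TPM in sh-LINC00958 and 28.13 and 27.95 TPM in sh-NC, with every sh-LINC00958 library below both controls. The MTHFD2L log2 fold change was -0.64 ± 0.139 (SE, limma adjusted p = 0.0440), and -0.26 (adjusted p = 0.176) with the GC and length trend removed. FPGS, which adds the glutamate tail that keeps folate in cells, had 0.36 (limma adjusted p = 0.0796), and 0.18 (adjusted p = 0.279) with that trend removed. The list's median was -0.07, and 7 of the 20 had groups that did not overlap, beside 49.9% of all tested genes. Over all tested genes 4.12% passed higher and 5.68% lower, and these shares stand beside the counts of every list below.

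Among 9 tested serine and glycine carriers 1 rose and 1 fell. SLC1A5, a plasma membrane carrier of neutral amino acids including glutamine and serine, measured 241, 239.9 and 264 TPM in sh-LINC00958 and 156 and 164 TPM in sh-NC. All 3 sh-LINC00958 libraries were above both controls, and the SLC1A5 log2 fold change was 0.63 ± 0.0775 (SE, limma adjusted p = 0.0154). SFXN1, which carries serine into mitochondria, measured 50.5, 54.7 and 47.6 TPM in sh-LINC00958 and 75.7 and 76.6 TPM in sh-NC. The SFXN1 log2 fold change was -0.57 ± 0.0898 (SE, limma adjusted p = 0.0246). Both calls held with the GC and length trend removed (SLC1A5 0.46, adjusted p = 0.0249, and SFXN1 -0.49, adjusted p = 0.0213). SLC38A2, another neutral amino acid carrier, had -0.38 (limma adjusted p = 0.0502) and -0.01 with that trend removed. The list's median was 0.00.

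The list named for serine use held 14 tested genes, among them membrane proteins of the SERINC family that are not counted here as serine-using enzymes. Of the 14, 0 rose and 3 fell, with a median of -0.11. SPTLC1 and SPTSSA encode subunits of serine palmitoyltransferase, which starts sphingolipid synthesis. SPTSSA measured 24.9, 34.1 and 19.4 TPM in sh-LINC00958 and 52.6 and 53.6 TPM in sh-NC (log2 fold change -1.03 ± 0.223, SE, limma adjusted p = 0.0440). SPTLC1 had a smaller change (-0.36, limma adjusted p = 0.0428), and SERINC5, a multipass membrane protein gene, had -0.89 (limma adjusted p = 0.0201). sh-LINC00958 libraries were below both controls for all 3. With the GC and length trend removed SERINC5 still passed (-0.85, adjusted p = 0.0179), while SPTLC1 (-0.16, adjusted p = 0.164) and SPTSSA (-0.68, adjusted p = 0.0829) did not.

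Nucleotide synthesis, which the folate pool feeds, was mixed, and none of the genes named here itself takes up folate-bound carbon. Of 13 purine synthesis genes 1 rose and 0 fell, with a median of 0.04. PRPS1, which makes the ribose phosphate donor, measured 227, 236 and 215 TPM in sh-LINC00958 and 158 and 174 TPM in sh-NC, and its log2 fold change was 0.44 with the GC and length trend left in (limma adjusted p = 0.0322) and 0.44 with it removed (0.0287). PPAT, the committing enzyme, had -0.78 (limma adjusted p = 0.0630), and ADSS had -0.36 (limma adjusted p = 0.0776). With that trend removed they were -0.38 (adjusted p = 0.189) and -0.06 (adjusted p = 0.584). Of 15 thymidylate and pyrimidine genes 0 rose and 3 fell, with a median of -0.05. Those were the nucleoside kinases DCK (log2 fold change -1.11, limma adjusted p = 0.0291) and TK2 (-0.64, limma adjusted p = 0.0378) and the ribonucleotide reductase subunit RRM2B (-0.71, limma adjusted p = 0.0336). DCK measured 23.8, 34.4 and 23.0 TPM in sh-LINC00958 and 53.6 and 63.8 TPM in sh-NC. DCK and TK2 still passed with the GC and length trend removed (-0.71, adjusted p = 0.0497, and -0.69, adjusted p = 0.0351), and RRM2B did not (-0.38, adjusted p = 0.0760).

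Of 10 tested regulators 1 rose, the cell cycle factor E2F1 (log2 fold change 0.35, limma adjusted p = 0.0351, and 0.15, adjusted p = 0.219, with the GC and length trend removed). KEAP1, which restrains the antioxidant factor NRF2, had 0.44 (limma adjusted p = 0.0617), and MEN1 had 0.32 (limma adjusted p = 0.0653). With that trend removed they were 0.26 (adjusted p = 0.255) and 0.14 (adjusted p = 0.316). ATF4 and MYC were chosen after their values were seen. ATF4 measured 531, 416 and 539 TPM in sh-LINC00958 and 409.8 and 409.3 TPM in sh-NC. Its log2 fold change was 0.26 (limma adjusted p = 0.217), and 0.12 (adjusted p = 0.558) with the GC and length trend removed. ATF4 passed in only 1 of the 16 alternative settings given below, without sh-LINC00958 replicate 2 (0.39, limma adjusted p = 0.0230). MYC differed between the controls, with 7.12 and 31.7 TPM in sh-NC and 19.9, 26.6 and 27.8 TPM in sh-LINC00958. The MYC log2 fold change was 0.65 (limma adjusted p = 0.473), -0.36 if sh-NC replicate 1 is left out and 1.65 if sh-NC replicate 2 is.

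Whether the 12 calls among the surrounding genes, counting AHCYL2 below, passed depended on the libraries used, as did the counts over all genes. The full fit called 702 genes higher and 969 lower. In limma 11 of the 12 remained without sh-LINC00958 replicate 2 (all but TK2), with 904 and 1486 over all genes. Without replicate 3, 1 remained (SLC1A5), with 112 and 145 over all genes. Without replicate 1, 0 remained (adjusted p 0.0648 to 0.140), with 36 and 51 over all genes. Leaving out a sh-NC library leaves 1 control, so only sizes are compared there. Whichever library was left out, each of the 12 kept its sign, for example SLC1A5 at 0.59 to 0.67 and SPTSSA at -1.23 to -0.84. Among the named genes that had not passed, besides ATF4, these did so without sh-LINC00958 replicate 2: PPAT (limma adjusted p = 0.0150), SLC38A2 (0.0225), ADSS (0.0321) and, from the methionine and glycolysis lists, AHCY (0.0350), AMD1 (0.0447) and PKM (0.0467).

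**Figure D4:**
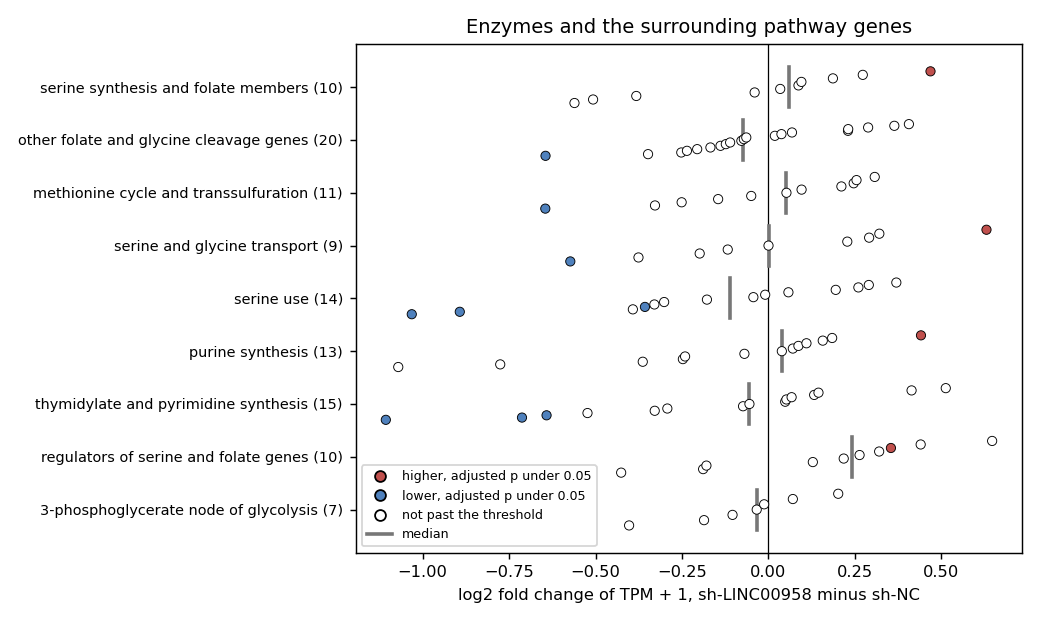
Log2 fold change of TPM + 1 (horizontal axis, sh-LINC00958 minus sh-NC) of every tested gene in 9 lists, with the number tested in brackets; red and blue points passed an adjusted p of 0.05 higher and lower, and grey bars are medians. Each list holds at most 3 genes past the threshold, and PHGDH (0.47) and SLC1A5 (0.63) are among the red points.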

How the data were processed

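RNA sequencing was done on 5 libraries of Ishikawa cells, 3 sh-LINC00958 and 2 sh-NC, grouped by sample title. The authors deposited 1 table of TPM values with 1 column per library, each summing to about 999932 to 999947. Per the submitters' processing notes the tools were FastQC 0.11.2, Trimmomatic 0.36, HISAT2 2.0 and StringTie 1.3.3b on GRCh38; the annotation release is not given in the sources used here. TPM is relative to the other RNAs of a library and keeps no depth. No 2 libraries held identical values.

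Values were tested as log2(TPM + 1) for 17049 genes with a mean TPM of at least 1, with limma 3.58.1 in R 4.3.3 (eBayes with trend, no further scaling), and the script was tested on simulated data. Coordinates, GC content and exon length came from GENCODE 29, which held 57836 of 58174 gene IDs and all 10 members, and upstream sequences from RefSeq (GRCh38.p14). The GC and length trend was fitted per library with splines and subtracted. Alternatives were pseudocounts of 0.1 and 5, other filters, median-ratio and quantile scaling, no trend, robust eBayes, a replicate block and leaving out each library. Every member is named; from each surrounding list, genes past the threshold and the 3 with the smallest p, except 1 gene that is not reported here. The members and lists were chosen with earlier results of these data known.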

Additional observations from a re-analysis of the deposited data

How the results depend on the processing

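Across 16 alternatives the fitted values of the 10 enzymes were the same in direction and side of the threshold in 149 of 160 cases. The 9 enzymes without a call count as the same whenever they keep their sign and stay uncalled. Other filters, no trend and robust eBayes also leave fitted values unchanged and alter only the test. This tally therefore does not measure how firm the call of PHGDH is. PHGDH passed in 7 of the 16, and its log2 fold change ranged from 0.30 to 0.51. The count of enzymes called higher, 1 in the reported fit, was 0 without a filter on low values, without the mean-variance trend, with the GC and length trend removed, with the replicate block and with the replicate block plus GC and length removal, and ran from 0 to 1 when 1 library was left out. For all genes, 702 higher and 969 lower became 207 and 269 without a filter, 371 and 518 without the trend, 414 and 443 with the GC and length trend removed, 0 and 2 with the replicate block, and 0 and 0 with the replicate block plus that removal. Leaving out 1 library gave 10 to 904 higher and 6 to 1486 lower. Fitted log2 fold changes turned sign for PSAT1 when 1 library was left out (-0.0108 to 0.0978), for TYMS (-0.0859 to 0.0062), for TYMSOS (-0.204 to 0.0315) and for MYC (-0.36 to 1.65), and for AMD1 with the GC and length trend removed (0.0786) and with the replicate block plus that removal (0.0880). The cause was not tested. Of 30 other named genes, 361 of 479 values were the same, 100 lost a call, 14 gained one and 4 turned sign.

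The reported fit was planned without taking replicate numbers as pairs, and the replicate block was an alternative. Deviations of libraries with the same replicate number had a correlation of 0.0013 for number 1 and 0.05 for number 2. With only 2 sh-NC libraries, the control deviations mirror each other, so these values are not separate checks and do not settle pairing. With the replicate block the PHGDH log2 fold change was 0.44 (limma adjusted p = 0.120), in a fit that rests on 2 libraries a group. TPM keeps no depth, so no counting interval can be given for any enzyme.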

Other observations

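A list of methionine cycle, transsulfuration and related genes held 11 tested genes. Of these 0 rose and 1 fell, beside 4.12% and 5.68% of all genes, with a median log2 fold change of 0.05. AHCYL2, a relative of adenosylhomocysteinase, measured 12.4, 10.7 and 12.2 TPM in sh-LINC00958 and 18.0 and 19.9 TPM in sh-NC, with every sh-LINC00958 library below both controls. The AHCYL2 log2 fold change was -0.65 ± 0.117 (SE, limma adjusted p = 0.0309), and -0.59 (adjusted p = 0.0575) with the GC and length trend removed. AHCY, adenosylhomocysteinase itself, had 0.31 (limma adjusted p = 0.0662), and 0.18 (adjusted p = 0.237) with that trend removed. AMD1, which starts polyamine synthesis, had -0.33 (limma adjusted p = 0.0867), and 0.0786 with that trend removed.

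A list of glycolytic genes on both sides of the point where serine synthesis branches off, from GAPDH to PKM, was also read. In it 0 of 7 tested genes passed in limma, beside 9.8% of all genes. An unadjusted p under 0.05 was found for 1 gene, beside 30.7% of all genes. That gene was BPGM (log2 fold change -0.40, limma adjusted p = 0.159). ENO1, an enolase, measured 1928, 1581 and 1684 TPM in sh-LINC00958 and 1956 and 1969.5 TPM in sh-NC (limma adjusted p = 0.249), and PKM, pyruvate kinase, had a log2 fold change of 0.20 (limma adjusted p = 0.313).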
